A study of Mus musculus with 12 samples.

Results

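The cytosolic ribosomal protein genes were followed in bulk RNA-seq of mouse cerebellum, across 4 groups of genotype and activity. Members were all protein-coding genes with a mouse symbol of the form Rps or Rpl and a number (with or without a final a, l or x), together with Rplp0, Rplp1, Rplp2 and Rpsa. The rule gave 81 genes of the 56941 in the count tables, 32 of the small and 49 of the large subunit, spread over 19 chromosomes with 4 on the X. Of these, 78 passed the expression filter and were tested among 20341 genes. SCA1 mice carried 1 expanded and 1 normal allele of Atxn1 (Atxn1 154Q/2Q, a knock-in at the gene's own locus), and WT mice were C57BL/6J littermates; both sexes were used, and the sex of each mouse was not used here. Exercise mice were housed alone with free access to a running wheel from 4 to 16 weeks of age, a span of 12 weeks, and sedentary mice were housed in groups without wheels, so running and housing cannot be told apart. Wheels were taken out before behavioural testing, which began at about 16 weeks of age in all groups. Tissue was collected after testing from perfused animals. Each group held 3 mice, with 1 library per mouse.

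A ribosome consists of a small subunit, which decodes the mRNA, and a large subunit, which joins amino acids. Each contains ribosomal RNA and a set of proteins that are mostly needed in a single copy per ribosome, and most of these proteins come from 1 gene each. Their mRNAs typically start with a C followed by a run of pyrimidines, the terminal oligopyrimidine (TOP) motif, through which the kinase complex mTORC1 and the protein Larp1 control their translation. RNA levels, as measured here, say nothing about how strongly the mRNAs were translated.

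The windows that follow show this motif, 10 bases before to 20 bases from the annotated start site, 5′ to 3′ on the gene's strand, from RefSeq promoters (build GRCm38.p6) placed on GRCm39 by exact match. Capitals mark the pyrimidine run where C stood at the first transcribed base with pyrimidines at the next 4. The first 5 genes held it, among them Rps27, the member with the smallest p in several comparisons, and Rps6, the substrate of the S6 kinases downstream of mTORC1. The last 3 did not, including the paralogue Rps27l, whose other listed start did not hold it either.
Rps27 (chr3:90120936-90120965, minus strand): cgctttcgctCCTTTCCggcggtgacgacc
Rps6 (chr4:86775585-86775614, minus strand): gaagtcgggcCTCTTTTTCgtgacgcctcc
Rps18 (chr17:34174620-34174649, minus strand): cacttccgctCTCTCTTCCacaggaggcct
Rpl35 (chr2:38895124-38895153, minus strand): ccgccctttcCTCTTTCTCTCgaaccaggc
Rpl38 (chr11:114559396-114559425, plus strand): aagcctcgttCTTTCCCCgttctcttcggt
Rps27l (chr9:66853358-66853387, plus strand): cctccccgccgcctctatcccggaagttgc
Rps25 (chr9:44319001-44319030, plus strand): ccgacatcttagcgaggctgctgtggtcta
Rpl11 (chr4:135780685-135780714, minus strand): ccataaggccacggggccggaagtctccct

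The promoter table held 72 start sites for 60 of the 81 members, and 13 of the 72 (18.1%) had the run at the first base, against 2.51% of all 32851 start sites in the table. Only the gene's strand was searched. A run of 8 pyrimidines anywhere from 10 bases before to 20 bases after the start site was present at 23 member start sites (31.9%) and at 11.2% of all. The annotated first base can lie a few bases from the one used in cerebellum, so a window without the run does not show that the mRNA lacks it.

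Between 20556802 and 32127508 read pairs per library were counted to genes on the sequenced strand. The 81 genes took between 0.432% and 0.711% of these, or 89391 to 219557 read pairs per library, so counting error was small for all but the lowest members. The labels name each mouse but not whether RNA was extracted or sequenced in batches. SCA1 sedentary mouse 16 and SCA1 exercise mouse 55 stood apart, with 6.38% and 6.33% of read pairs mapping to several places against 2.08% to 3.46% in the other 10 libraries. Of the RNA samples, 2 had a lower integrity score and an adjusted library preparation, and which ones was not used here. Markers of the labelled tissue were present: the 10 Purkinje cell markers summed to 4682 to 8599 counts per 1000000 gene counts (CPM) per library and the 10 granule cell markers to 3775 to 7374, with none of the genes at 0 throughout.

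Levels of the members were compared per kilobase of coding sequence, as CPM per kb averaged over the 12 mice. Aside from 5 tested genes described next, the other 73 tested members lay between 59.7 and 1170 CPM per kb, with a median of 131. The highest were Rpl41, whose protein is the shortest of the ribosome (1170 CPM per kb, a coding length of 75 bases), Rps29 at 345 and Rps24 at 286. Coding sequence leaves out the untranslated ends, which weighs most on a gene as short as Rpl41. By the union of annotated exons instead, Rplp1 ranked at 1, Rpl41 at 5 and Rps24 at 46, so the order among the highest members depends on the length used.

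**Figure D1:**
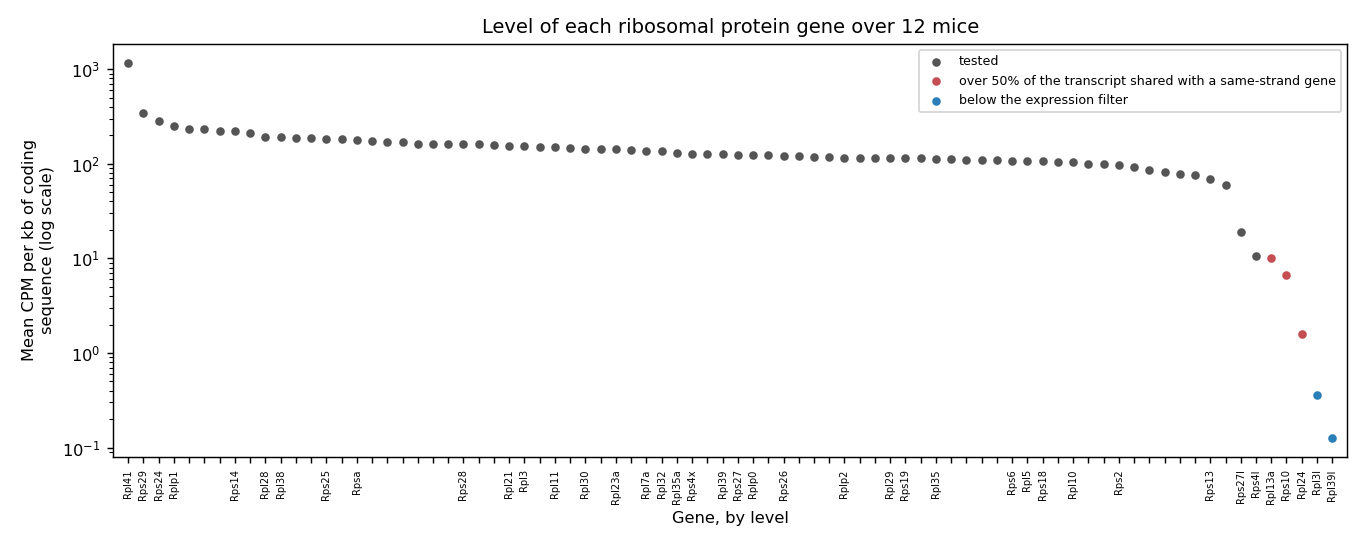
Mean level of each of the 80 ribosomal protein genes with any count, over 12 mice, as CPM per kb of coding sequence on a log scale, ordered from highest to lowest, with labels for genes described in the text. Most members form a shallow slope from 345 down to 59.7, and the 3 genes in red (10.1, 6.60 and 1.57) and the paralogues sit well below it.

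The lowest tested members were Rpl24, Rps10 and Rpl13a, at 1.57, 6.60 and 10.1 CPM per kb. All 3 encode core proteins of the ribosome, and all 3 share more than 50% of their transcript with another annotated gene on the same strand. The shared part was 71.5% for Rpl24 (with Gm28037), 53.6% for Rps10 (with Gm49804) and 59.3% for Rpl13a (with Gm45713 and the microRNA gene Mir5121). STAR assigns no gene to a read that falls on exons of more than 1 gene, and the 4 overlapping genes had 0 counts in all 12 libraries. No other member had such an overlap above 50%. The levels of these 3 genes are therefore uncertain, since reads from the shared part were not counted if the authors' annotation holds the same genes, and Rpl24 had only 9 to 34 counts per library.

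Paralogues that differ from a member by a final l or x were weakly covered. Rps27l, at 18.9 CPM per kb, had 15.1% of the CPM of Rps27 and 76.2% identity to it over 252 coding bases. Rps4l, at 10.6 CPM per kb, had 8.36% of the CPM of the X-linked Rps4x, with 629 of 786 aligned coding bases the same. Rpl3l, known from heart and skeletal muscle, had 2 to 10 counts per library, 0.142% of the CPM of Rpl3. Rpl39l, a testis form of Rpl39, had 0 to 3 counts, and Rpl10l, a testis form of the X-linked Rpl10, had 0 in every library. The last 3 genes did not pass the filter, which leaves 78 tested members.

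Ribosomal protein mRNAs have been copied back into the genome many times, and reads that match several copies equally are left out of such counts. Of the 81 members, 74 had at least 1 further copy in GRCm39 that aligned over at least 80% of the coding sequence at 95% identity or more, with a median of 5 copies. Rpl21 had 57, Rpl29 had 28, Rpl7a had 26 and Rps2 had 24. The 321 annotated pseudogenes named after members held 32.8 to 41.3 CPM in all per library, against 4324 to 7109 for the members. Opposite-strand genes lowered the count of some members when strand was ignored: the unstranded count of Rpl23a came to 10.2% of its stranded count, that of Rpl35 to 38.97% and that of Rpl30 to 69.1%. The library kit keeps the strand and the stranded column was used throughout.

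Across mice the members moved as a block. Over the 12 libraries the median correlation between 2 members was 0.88 (3003 pairs; log2 CPM, a description over points that share library and depth), and the first principal component held 83.6% of their variance. For the 78 mitochondrial ribosomal protein genes, which build the separate ribosome of the mitochondrion, these values were 0.41 and 56.9%. The median SD of log2 CPM was 0.273 over the members and 0.273 over all genes tested, which were not matched to the members in level. The most variable members were Rps4l (SD 0.447), Rps14 (0.391) and Rpl24 (0.389), and the least variable Rps10 (0.142), Rpl13a (0.146) and Rps13 (0.160). Rps14 sits on the platform of the small subunit, and Rps13 binds the central part of its RNA.

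The members least like the rest included the 3 genes with same-strand overlaps. Rpl24 had a correlation of -0.25 with the mean of the other members, Rps10 of 0.031 and Rpl13a of 0.55. Rps27l, at 0.61, and Rps27, at 0.69, followed. Most members had their highest level in WT sedentary mouse 116 (38 members) or SCA1 sedentary mouse 16 (34), and their lowest in SCA1 sedentary mouse 195 (30), WT exercise mouse 201 (17) or WT exercise mouse 197 (13).

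**Figure D2:**
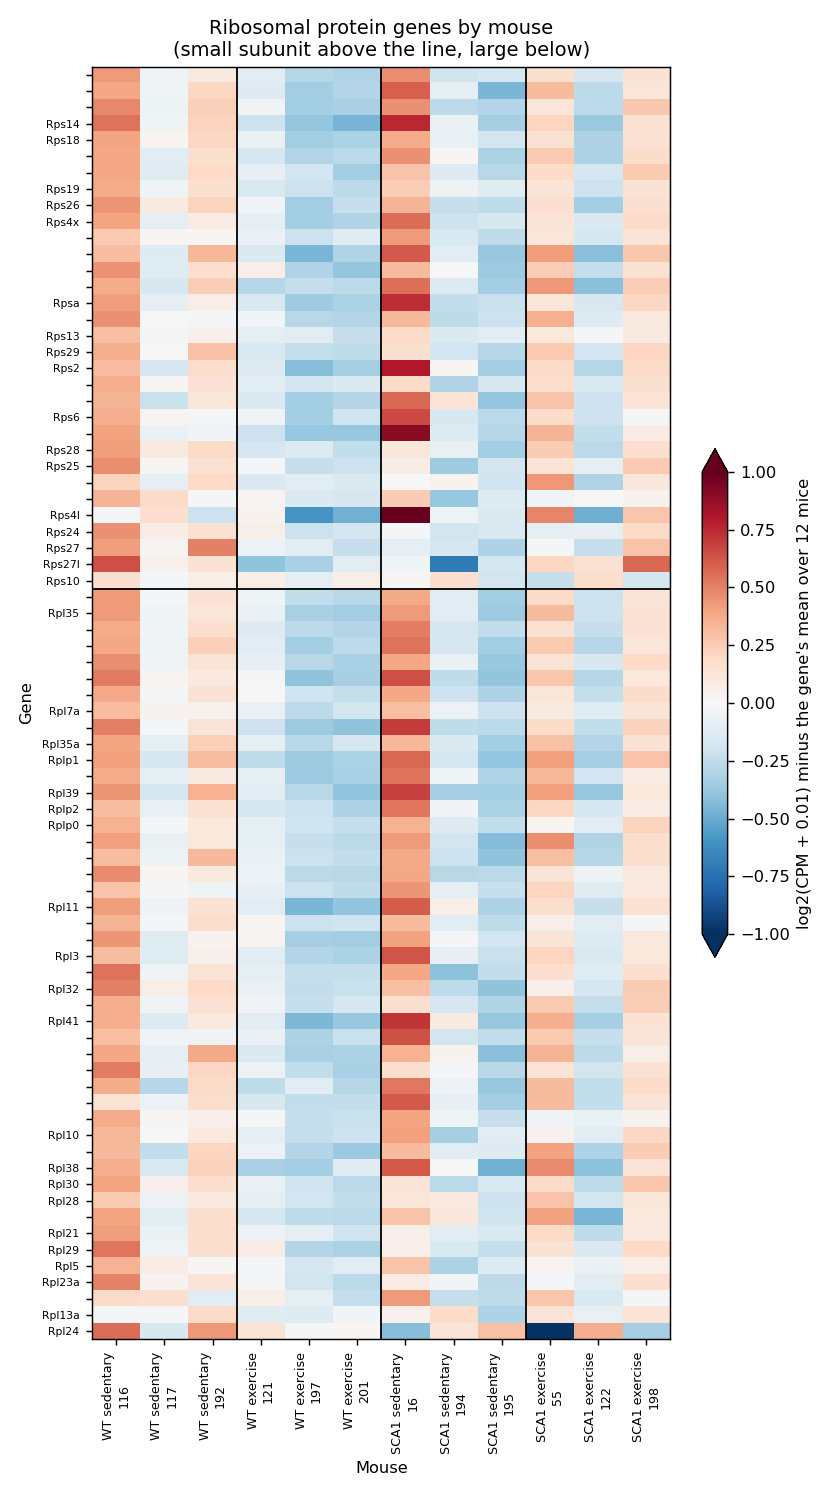
Level of each of the 78 tested members (rows; small subunit above the line, large below, ordered by correlation with the other members) in each of the 12 mice (columns, by group; only genes described in the text are labelled), as log2(CPM + 0.01) minus the gene's own mean. Columns 116 and 16 are red nearly throughout and columns 197, 201 and 195 blue, while Rps10, Rpl13a and Rpl24 at the foot of each block do not follow.

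Summed over the 81 genes, WT sedentary mouse 117 had 5093 CPM, mouse 192 had 5707 and mouse 116 had 6834. WT exercise mice had 4324 (mouse 197), 4329 (mouse 201) and 4920 (mouse 121), so these 2 groups did not overlap. SCA1 sedentary mice gave the widest range, from 4348 (mouse 195) and 4769 (mouse 194) up to 7109 (mouse 16). SCA1 exercise mice reached 4570 (mouse 122), 5789 (mouse 198) and 5985 (mouse 55). Group means were 5878 ± 883 CPM (SD, n = 3) for WT sedentary, 4524 ± 343 for WT exercise, 5409 ± 1487 for SCA1 sedentary and 5448 ± 767 for SCA1 exercise. Without mouse 16 the SCA1 sedentary mean was 4559. Both subunits shared the pattern, and the ratio of the summed large to the summed small subunit genes stayed between 1.53 and 1.61 in all 12 mice.

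**Figure D3:**
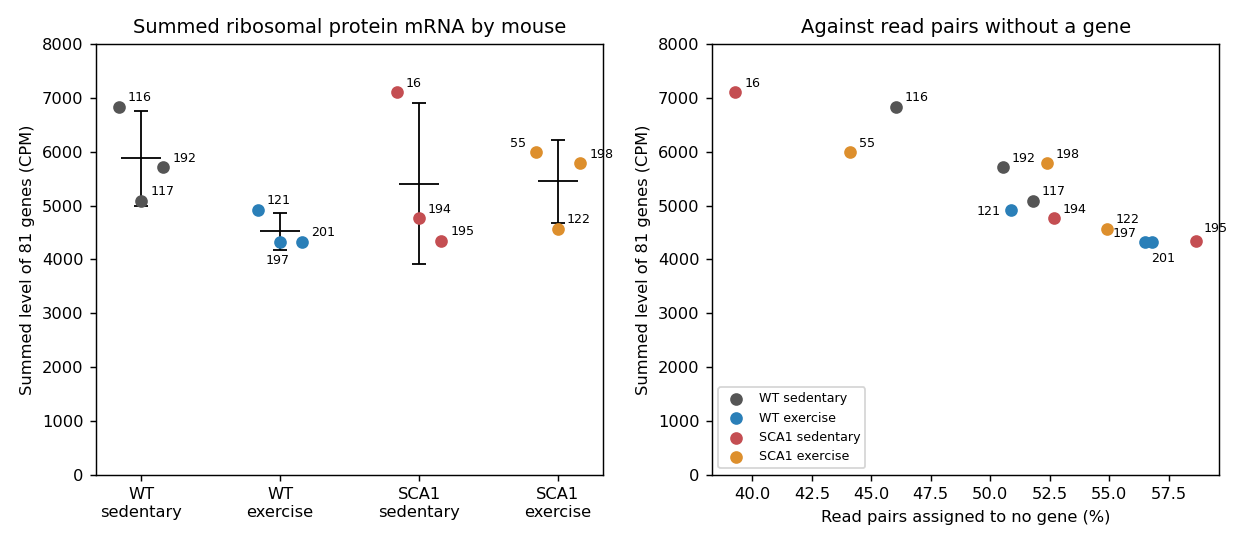
Summed level of the 81 genes in CPM for each mouse (points, labelled by mouse number), by group with mean ± SD on the left, and against the percent of read pairs assigned to no gene on the right. WT exercise mice (4324 to 4920) lie below all WT sedentary mice (5093 to 6834), and the sum is lower in libraries with more read pairs outside genes.

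Several measures of the libraries moved with this sum. The share of read pairs that fell in no gene, which includes reads between genes and in introns not counted as exons, was smallest in the 3 libraries with the highest sums, at 39.3% (mouse 16), 44.1% (mouse 55) and 46.0% (mouse 116). The 3 libraries with the lowest sums had the largest shares, at 56.5% (mouse 197), 56.8% (mouse 201) and 58.7% (mouse 195). By group, it was 46.0% to 51.8% in WT sedentary and 50.9% to 56.8% in WT exercise mice. All 9 oligodendrocyte markers were tested, and their summed level was 3358 to 4326 CPM in WT sedentary, 2785 to 2941 in WT exercise, 2635 to 7301 in SCA1 sedentary and 2714 to 5789 in SCA1 exercise mice, with mouse 16 and mouse 55 at the top. The 9 microglia markers followed the same order, at 121 to 141, 102 to 111, 103 to 202 and 107 to 163 CPM, and none of either list was at 0 throughout. In bulk tissue a change in the share of a cell type and a change in RNA per cell cannot be told apart, and the part of these measures in the results that follow was not tested apart from 1 fit with the share without a gene as a covariate.

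The first question was how wheel running bore on these genes in healthy mice. In WT exercise against WT sedentary mice all 78 tested members had a negative log2 fold change, with a median of -0.39 against 0.00 over all genes tested. Every WT exercise mouse was below every WT sedentary mouse for 55 of the 78 (TMM-scaled log2 CPM), against 11.1% of all genes. No member passed the threshold (edgeR quasi-likelihood test, Benjamini-Hochberg adjusted p under 0.05 and absolute log2 fold change above 0.5). No gene did so in this edgeR fit of 4 groups (0% of those tested). At an unadjusted p under 0.05, 28 members were lower and 0 higher, against 1.91% of all genes that were lower. By DESeq2 0 members were called, against 63 of 35145 genes (0.179%). At that p 34 members were lower by DESeq2, against 1.31% of those genes. The lack of calls over all genes thus held in the edgeR fit and not by DESeq2. The paper reports genes with changed expression between sedentary and exercised WT mice. The leading members were Rps27 and Rps29, zinc-binding proteins of the small subunit, and Rpl23a, a protein at the exit of the peptide tunnel.

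Rps27 stood at 31.5, 41.3 and 43.8 CPM in WT sedentary mice and at 26.4, 28.6 and 29.7 in WT exercise mice. The groups did not overlap, with a log2 fold change of -0.47 ± 0.15 (SE; adjusted p = 0.81, edgeR). Rps29 was at 57.4, 70.3 and 73.8 CPM in WT sedentary and 48.1, 48.6 and 51.6 in WT exercise mice (log2 fold change -0.45 ± 0.15, adjusted p = 0.89, edgeR). Rpl23a was at 67.3, 71.8 and 92.5 CPM and then 54.6, 57.7 and 65.0 (-0.40 ± 0.14, adjusted p = 0.96, edgeR). An exact permutation test of any of these genes cannot go below 0.1 with 3 mice against 3, and gave 0.1 for each, two-sided.

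The values for WT exercise depended on how the libraries were treated. The median was -0.26 without WT sedentary mouse 116. With the percent of read pairs without a gene as a covariate the median was -0.18, with 77 of 78 members negative and 21 lower at an unadjusted p under 0.05, against 2.83% of all genes in that fit. The count of 28 became 2 when WT sedentary mouse 116 was left out (0.731% of all genes lower at that p in the same fit). It became 53 without WT sedentary mouse 117 (2.29%), 5 without WT exercise mouse 201 (0.9%) and 7 without WT exercise mouse 197 (0.784%). The count was 49 without SCA1 sedentary mouse 195 (2.73%) and 68 without SCA1 sedentary mouse 16 (4.66%). These 2 mice take no part in the comparison and enter through the shared estimate of spread. The share over all genes thus moved with the count. With only the 2 WT groups in the fit, 73 members were lower at that p, against 8.02% of all genes in the same fit. In it 1 member, Rps14, was called among 150 genes (0.777% of those tested), so a single call is near the background. Other markers also differed between the WT groups: all 8 choroid plexus markers were positive (median log2 fold change 2.88) and all 5 erythrocyte markers negative (-0.79), as were all 9 oligodendrocyte (-0.45) and all 9 microglia markers (-0.47).

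The next question was whether the genes differed with genotype in sedentary mice. In SCA1 sedentary against WT sedentary mice 70 of 78 members had a negative log2 fold change, with a median of -0.17 against 0.02 over all genes. No member was called, with 0.0344% of all genes called (7 genes). At an unadjusted p under 0.05, 8 members were lower and 0 higher, against 4.55% of all genes that were lower. These were Rps27, Rps24, Rps25, Rps27l, Rpl23a, Rpl29, Rps29 and Rps28. DESeq2 called 0 members, against 201 of 35145 genes (0.572%). It gave the same count of 8 lower at that p, against 2.54% of those genes. Every SCA1 sedentary mouse was below every WT sedentary mouse for 3 members, Rps24, Rps27 and Rps27l, against 5.76% of all genes, which is no more than the background.

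Rps27 was at 25.004, 27.4 and 28.9 CPM in SCA1 sedentary mice, below all 3 WT sedentary values (log2 fold change -0.55 ± 0.15, adjusted p = 0.26, edgeR). Rps24, a small subunit protein also known from Diamond-Blackfan anaemia, was at 117, 123 and 152 CPM in WT sedentary and 96.8, 99.4 and 109 in SCA1 sedentary mice (-0.39 ± 0.12, adjusted p = 0.32, edgeR). Rps25, which takes part in initiation at some internal ribosome entry sites, was at 68.9, 75.9 and 94.2 CPM and then 53.3, 60.0 and 71.7, with overlap (-0.40 ± 0.15, adjusted p = 0.39, edgeR). In mouse 16 the median member lay 0.39 above its own mean on the log2 scale. Rps27 lay at -0.097 in that library, Rps24 at -0.021, Rps27l at -0.042 and Rps25 at 0.073. These genes were picked by p in a comparison that includes mouse 16. Their lower values in it follow from that choice and are no separate result. For a member highest in mouse 16, not every SCA1 sedentary mouse can be lower. An example was Rps14, at 94.2, 113 and 141 CPM in WT sedentary and 76.9, 92.4 and 163 in SCA1 sedentary mice.

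This comparison depended on single mice. Without mouse 16 all 78 members were negative, the median was -0.42 and 58 were at an unadjusted p under 0.05, with none called; 8.29% of all genes were lower at that p in this fit. The count of 8 became 2 when WT sedentary mouse 116 was left out (2.45% of all genes lower at that p in the same fit). It became 14 without WT sedentary mouse 117 (2.93%), 3 without SCA1 sedentary mouse 194 (4.35%) and 4 without SCA1 sedentary mouse 195 (7.66%). The counts of 2, 3 and 4 among 78 members are close to or below these shares. The median was -0.058 without mouse 116, -0.26 without mouse 117, -0.11 without mouse 194 and -0.045 without mouse 195. Without mouse 16 and mouse 55 together the median was -0.40, 62 members reached that p against 9.51% of all genes in that fit, and 1, Rpl32 of the large subunit, was called among 205 genes (1.00%). With the percent of read pairs without a gene as a covariate the median was -0.17, 29 members reached that p against 10.1% of all genes in that fit, and 1, Rps27, was called among 439 genes (2.16%; log2 fold change -0.54, adjusted p = 0.045, edgeR). A single member called is near the background share in the first of these fits and below it in the second. In the same comparison all 10 Purkinje cell markers were negative (median log2 fold change -0.70, 2 called), as were all 10 granule cell markers (-0.40, 6 at an unadjusted p under 0.05). All 8 choroid plexus markers were positive (2.04, 4 at that p), and so were all 9 oligodendrocyte markers (0.17). The part of these in the members' values was not tested.

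**Figure D4:**
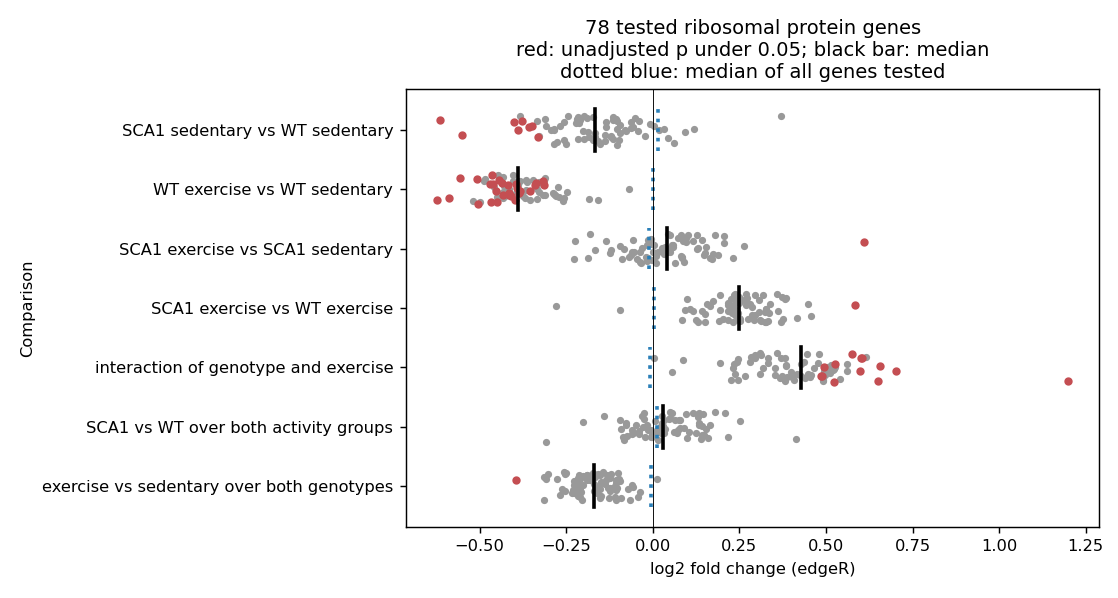
Log2 fold change (edgeR) of each of the 78 tested members in the 7 comparisons; red points have an unadjusted p under 0.05, black bars are the median of the members and dotted blue bars the median of all genes tested. All members are left of 0 in WT exercise against WT sedentary (median -0.39) and right of 0 in the interaction (median 0.43), and none passed the adjusted threshold.

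The remaining questions were how running bore on SCA1 mice and whether it did so as in WT mice. In SCA1 exercise against SCA1 sedentary mice 47 members were positive and 31 negative, with a median of 0.041 against -0.01 over all genes. No member was called, of 0% of all genes. Only Rps27l reached an unadjusted p under 0.05, as higher, against 1.19% of all genes that were higher, and it was also the only member higher in every SCA1 exercise than in every SCA1 sedentary mouse, against 2.43% of all genes. A single member of 78 is close to both background shares. Next by p were Rps25 (log2 fold change 0.26 ± 0.15) and Rps27 (0.23 ± 0.15). The median had no stable sign: it was -0.034 without SCA1 exercise mouse 55, -0.011 without SCA1 exercise mouse 198, -0.036 without SCA1 sedentary mouse 194, -0.086 without SCA1 sedentary mouse 195 and 0.28 without SCA1 sedentary mouse 16. All 10 Purkinje cell markers were positive here (median 0.36, 6 at an unadjusted p under 0.05), as were 9 of 10 granule cell markers (0.25). Positive too were 8 of 9 Bergmann glia and astrocyte (0.23) and all 8 choroid plexus markers (0.51). Most markers of oligodendrocytes (6 of 9, -0.13), microglia (6 of 9, -0.02), endothelium (6 of 8, -0.10) and meninges and fibroblasts (6 of 7, -0.26) were negative. Their part in the members' values was not tested.

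In SCA1 exercise against WT exercise mice 76 of 78 members were positive, with a median of 0.25 against 0.00, none was called (0% of all genes), and 1 was at an unadjusted p under 0.05 as higher, again Rps27l, against 1.45% of all genes. Rps27l and Rps13 were higher in every SCA1 exercise than in every WT exercise mouse, against 7.32% of all genes. After Rps27l came Rps29 (log2 fold change 0.31 ± 0.15) and Rpl28 of the large subunit (0.25 ± 0.13). Positive with them were all 9 oligodendrocyte (median 0.54), all 9 microglia (0.42) and all 5 erythrocyte markers (1.20), while all 10 Purkinje cell (-0.22) and all 10 granule cell markers (-0.18) were negative, and their part in the members' values was not tested. With the share of read pairs without a gene as a covariate this median was 0.097.

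The interaction, the difference between the change with exercise in SCA1 and in WT mice, was positive for all 78 members, with a median of 0.43 against -0.01 over all genes. None was called (0% of all genes). At an unadjusted p under 0.05, 13 members were higher and 0 lower, against 1.57% of all genes that were higher. Rps27l, Rps27 (log2 difference 0.70 ± 0.21) and Rps25 (0.65 ± 0.21) led these, followed by Rps29 (0.66 ± 0.21) and Rps24 (0.50 ± 0.18). By DESeq2 0 members were called, against 2 of 35145 genes (0.00569%). It gave 13 members higher at that p, against 0.965% of those genes. This comparison uses the same libraries as the 4 between groups and is no separate evidence. The count of 13 changed with the mouse left out. Brackets give the share of all genes that were higher at that p in the same fit. Among WT mice it became 7 for sedentary mouse 116 (0.769%), 26 for sedentary mouse 117 (1.41%) and 8 for exercise mouse 201 (0.967%). Among SCA1 mice it became 8 for exercise mouse 198 (1.25%), 32 for exercise mouse 122 (1.57%) and 72 for sedentary mouse 16 (8.95%). The median was 0.25 with the share without a gene as a covariate. Marker lists moved in this contrast as well: all 10 Purkinje cell (median 0.48, 6 at an unadjusted p under 0.05), all 9 Bergmann glia and astrocyte (0.33), all 9 oligodendrocyte (0.38), 8 of 9 microglia (0.37) and all 5 erythrocyte markers (0.96) were positive, and all 8 choroid plexus markers negative (-2.35). Their part in the members' values was not tested.

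Rps27l, a paralogue of Rps27 known as a target of p53, showed a crossed pattern. Its level was 4.75, 5.10 and 7.22 CPM in WT sedentary mice and 3.49, 3.68 and 4.27 in WT exercise mice. SCA1 sedentary mice had 2.82, 4.09 and 4.47 CPM, and SCA1 exercise mice 5.14, 5.33 and 6.86. WT sedentary and SCA1 exercise mice thus lay above all WT exercise and SCA1 sedentary mice. How many of all genes show such a pattern was not counted. Log2 fold changes were -0.59 ± 0.24 for exercise in WT, 0.61 ± 0.24 for exercise in SCA1, and 1.20 ± 0.33 for the interaction, with an adjusted p of 1.00 for the last (edgeR; unadjusted p = 0.0035). Counts were low, from 65 to 232 read pairs per library. The gene lies at chr9:66853340-66856808 (GRCm39, plus strand), had no further genome copy by the criteria used, and had no annotated exon of another gene over its transcript on its strand.

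**Figure D5:**
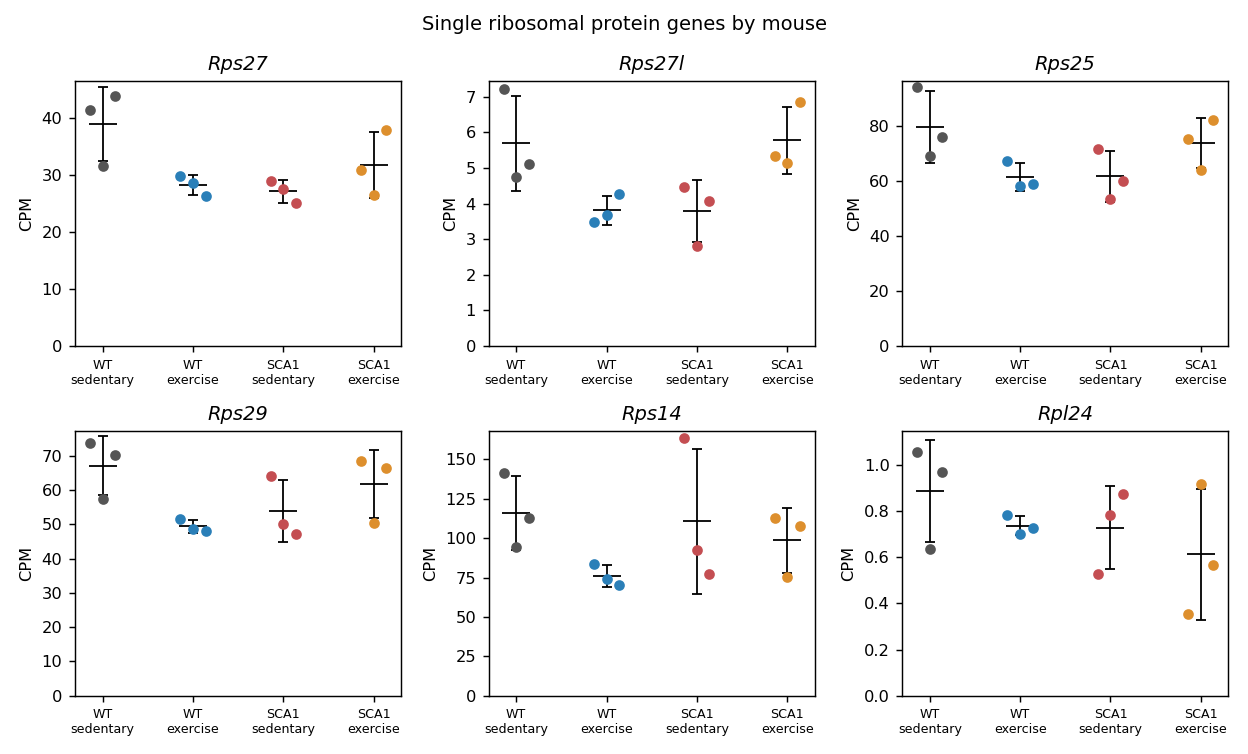
CPM of 6 members in each mouse (points) with mean ± SD by group (n = 3). Rps27l is high in WT sedentary (4.75 to 7.22) and SCA1 exercise mice (5.14 to 6.86) and low in the other 2 groups, Rps14 spans 76.9 to 163 in SCA1 sedentary mice, and Rpl24 stays at or below 1.06 CPM in all.

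Averaged over activity, SCA1 and WT mice gave a median of 0.030 over the members against 0.01 over all genes, with none called (0.118% of all genes), and none at an unadjusted p under 0.05 in either direction. The smallest p values belonged to Rps27 (log2 fold change -0.20 ± 0.11), Rps4l (0.41 ± 0.23) and Rps24 (-0.14 ± 0.088), with adjusted p of 0.56, 0.57 and 0.61 by edgeR. This median became -0.085 without mouse 16 and -0.0080 without WT sedentary mouse 117. Averaged over genotype, exercise against sedentary gave a median of -0.17 against -0.01, with 77 of 78 negative and none called (0% of all genes). Only Rps14 was at an unadjusted p under 0.05, as lower, against 1.38% of all genes that were lower. Rps14 had a log2 fold change of -0.39 ± 0.18, followed by Rpl11 (-0.31 ± 0.15) and Rps18 (-0.25 ± 0.12), all with an adjusted p of 0.94 by edgeR. The median was -0.050 without mouse 16, -0.11 without mouse 116 and -0.055 with the share without a gene as a covariate. DESeq2 called no member in any of the 7 comparisons. It called 0.572% of all genes in SCA1 sedentary against WT sedentary and 0.179% in WT exercise against WT sedentary. For the interaction it called 0.00569%, and the shares in the other comparisons were not counted. No call among 78 members is near these shares.

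The stalk proteins Rplp0, Rplp1 and Rplp2, which recruit translation factors to the large subunit, followed the block. Rplp0 was at 114, 125 and 147 CPM in WT sedentary and 98.1, 101 and 108 in WT exercise mice, and at 97.9, 106 and 147 in SCA1 sedentary and 108, 117 and 135 in SCA1 exercise mice. Only the 2 WT groups were apart. For exercise in WT mice the log2 fold changes were -0.34 ± 0.15 for Rplp0, -0.52 ± 0.25 for Rplp1 and -0.38 ± 0.19 for Rplp2. Rpsa, a small subunit protein that also serves as a laminin receptor, was at 145, 162 and 206 CPM in WT sedentary, 120, 124 and 139 in WT exercise, 130, 133 and 257 in SCA1 sedentary and 138, 168 and 178 in SCA1 exercise mice. It was highest in mouse 16 and overlapped between all groups other than the WT pair.

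Several members are known from Diamond-Blackfan anaemia, an inherited failure of red cell production, and their log2 fold changes in WT exercise against WT sedentary mice were negative, as for all 78 tested members. The value was -0.51 ± 0.21 for Rpl11, -0.46 ± 0.19 for Rps26, -0.39 ± 0.14 for Rps19, -0.38 ± 0.20 for Rpl35a, -0.35 ± 0.12 for Rps24, -0.26 ± 0.15 for Rpl5 and -0.068 ± 0.19 for Rps10, the member with a same-strand overlap. None passed the adjusted threshold. In SCA1 sedentary against WT sedentary mice they ranged from -0.39 for Rps24 to -0.043 for Rpl11. Rpl5 and Rpl11, which together bind Mdm2 when ribosome assembly is disturbed, thus gave -0.22 ± 0.15 and -0.043 ± 0.21 there.

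Genes around the ribosome were read from lists and no gene of these lists was called in any of the 7 comparisons. For exercise in WT mice, 7 of 8 tested ribosomal genes outside the naming rule, such as Fau and Rack1, were negative with a median of -0.36, close to the members. Mitochondrial ribosomal proteins had a median of -0.22, with 69 of 78 negative. Of these, 9 were lower at an unadjusted p under 0.05, against 1.91% of all genes. Of 17 translation factors whose mRNAs also carry the TOP motif, such as Eef1a1 and Eef2, 16 were negative with a median of -0.19 and 1 at that p. Assembly factors were nearer 0, with medians of -0.12 for 24 of the small and -0.10 for 34 of the large subunit, and so were 16 nucleolar RNP proteins (-0.12), 15 genes of RNA polymerase I (-0.07), which makes the ribosomal RNA, and 12 genes of ribosome quality control (-0.01). The 13 tested snoRNA host genes had a median of -0.22, and the 23 genes of mTORC1 control 0.04. In SCA1 sedentary against WT sedentary mice the same lists had medians from -0.16, for the ribosomal genes outside the rule, to 0.08, for mTORC1 control.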

How the data were processed

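Total RNA of cerebellum from 12 mice was depleted of ribosomal RNA and made into directional libraries. Per the labels, the authors trimmed reads with fastp 0.24.0 and aligned them to GRCm39 with STAR 2.7.10a; the annotation release is not given in the sources used here. The deposited values are read pair counts per gene as STAR writes them, unnormalized, for uniquely mapped pairs; the reverse-strand column was used. Lines that name no gene (39.3% to 58.7% of read pairs without a gene, 2.08% to 6.38% multimapping) stayed out of library sizes. Ensembl IDs were matched to GENCODE M39 symbols (56323 of 56941). Printed CPM are scaled to the gene counts of the library. Members and lists were chosen with earlier results of these data known.

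Counts were tested with edgeR 4.0.16 in R 4.3.3 (TMM, filterByExpr, quasi-likelihood, 4 group means, 12 libraries), adjusted by Benjamini-Hochberg over 20341 genes, with genes called when the adjusted p was under 0.05 and the log2 fold change beyond 0.5 in size; a fold change's SE is its size over the root of F. The fit was tested on simulated data. Log2 CPM had a prior count of 2. DESeq2 1.42.0, other scalings and filters, the unstranded counts, covariates and left-out mice were alternatives. No test was made of a score over the members. Named genes were the 3 of smallest p in each of 7 comparisons, the highest and lowest by level, the most and least variable, untested members, stalk genes, paralogues and anaemia genes, apart from some genes that are not reported here; members named for an unadjusted p under 0.05, groups that did not overlap, a call under an alternative, genome copies or strand were added after their values were seen. Genome copies were found with minimap2 2.31-r1302.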

Additional observations from a re-analysis of the deposited data

Results flagged for a closer look

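Rps27l was picked out because its effects under the same contrast went opposite ways in 2 groups, with every mouse on 1 side. For exercise against sedentary its log2 fold change was -0.59 in WT mice, with all WT exercise mice lower, and 0.61 in SCA1 mice, with all SCA1 exercise mice higher. For SCA1 against WT it was -0.61 in sedentary mice, all lower, and 0.58 in exercise mice, all higher. The difference itself, tested as the interaction, was 1.20 and did not pass the adjusted threshold (adjusted p = 1.00, edgeR). No other member showed opposite directions without overlap. The share of all genes with this pattern was not counted, so a single member with it cannot be called unusual. Groups of 3 were too small for a search for single outlying mice.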

How the results depend on the processing

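Under the alternatives other than those named here, counts of calls stayed at 0 and medians kept their sign; the log2 fold changes of the 3 leading members in each comparison kept their sign under every alternative run. 1 member was called in SCA1 sedentary against WT sedentary with the share of read pairs without a gene as a covariate (Rps27, where 2.16% of all genes were called) and without mouse 16 and mouse 55 (Rpl32, 1.00%), and 1 in WT exercise against WT sedentary with only these groups in the fit (Rps14, 0.777%). The cause was not tested. Of the ranges of mouse numbers used as a covariate, the lowest held only mouse 16 and mouse 55, so that covariate partly repeats leaving them out. The median for SCA1 against WT over both activity groups reversed to -0.11 with that covariate and -0.040 with the share without a gene. It was -0.11 without mouse 16 and mouse 55. Leaving out 1 mouse, it ranged from -0.085 to 0.086, the median for SCA1 exercise against SCA1 sedentary from -0.086 to 0.28, and that for SCA1 sedentary against WT sedentary from -0.42 to -0.045.

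Members at an unadjusted p under 0.05 moved most. Over the same alternatives the share of all genes at that p and direction ran from 2.45% to 10.1% for SCA1 sedentary against WT sedentary, 0.731% to 8.02% for WT exercise against WT sedentary and 0.769% to 8.95% for the interaction. In what follows the share of all genes in the same fit stands in brackets. For SCA1 sedentary against WT sedentary there were 5 with library totals (3.47%) and 5 with unstranded counts (3.8%). There were 37 with ranges of mouse numbers (5.65%) and 29 with the share without a gene (10.1%). Without mouse 16 and mouse 55 there were 62 (9.51%), and with only the 2 groups 3 (2.48%). Leaving out 1 mouse gave 2 (2.45%) to 58 (8.29%). For WT exercise against WT sedentary there were 61 with all genes of at least 1 count (1.68%) and 67 with ranges of mouse numbers (6.11%). Without mouse 16 and mouse 55 there were 72 (6.8%), and with only the 2 groups 73 (8.02%). Leaving out 1 mouse gave 2 (0.731%) to 68 (4.66%). For the interaction there were 27 with all genes of at least 1 count (1.25%) and 39 with ranges of mouse numbers (2.79%). There were 23 with the share without a gene (4.04%) and 64 without mouse 16 and mouse 55 (6.86%). Leaving out 1 mouse gave 7 (0.769%) to 72 (8.95%). No paired analysis was possible because the mouse numbers differ between groups. Labels do not say that mice were handled apart, so p-values measure the spread between these animals only.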
